A study of Homo sapiens with 12 samples.

Results

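The 34 genes described here are direct targets of the transcription factor p53. They were chosen by name as published p53 targets, with earlier results of these data known. Each had a single entry among the 58037 gene identifiers counted. They were measured by RNA-seq in 2 prostate cancer lines, DU-145/tet-MUC1shRNA and LNCaP-AI/tet-MUC1shRNA, each treated for 7 days with vehicle (DMSO) or with 500 ng/ml doxycycline (DOX), which switches on a short hairpin RNA against MUC1. There were 3 samples in each of 4 groups, 12 in all, from cells cultured in triplicate. LNCaP-AI cells are an androgen-independent derivative of the C4-2B subline of LNCaP that is kept in androgen-depleted medium. Both lines carry the same inducible vector with 1 MUC1 hairpin, in vehicle-treated cells too, and the sample labels name the groups shCTL and shMUC1. Cells with a control hairpin given DOX were not analysed here, so DOX itself and loss of MUC1 cannot be told apart. The lines were compared as a line with wild-type p53 (LNCaP-AI) and a line with mutant p53 (DU-145), and the p53 sequence was not examined here. They also differ in origin and in culture medium as well as in many genes. A difference between them therefore cannot be tied to any 1 of these, p53 status included.

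As background, p53 binds DNA as a tetramer and turns on genes of cell cycle arrest, apoptosis, DNA repair and metabolism when DNA damage, nucleolar stress or oncogene signals stabilise it. Several targets act back on it: MDM2 marks p53 for degradation, MDM4 masks its activation domain and the phosphatase encoded by PPM1D removes activating phosphates. In prostate cells the same targets are known for their response to radiation and to drugs that damage DNA.

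The p53 response element was searched for as 2 adjoining copies of its 10-base consensus, with no spacer, within 2500 bases on each side of the canonical start of each gene in GRCh38, on both strands (the element is its own reverse complement). With the central C and G of each copy required and up to 2 mismatches allowed elsewhere, 14 of the 34 genes (41.2%) held a match, against 742 of 19613 protein-coding genes (3.78%). At up to 1 mismatch the counts were 6 of 34 (17.6%) and 102 of 19613 (0.52%), and with no mismatch they were 2 of 34 (5.88%), PLK2 and ZMAT3, and 13 of 19613 (0.0663%). The other 20 genes held no such run of letters in this window. The genes were chosen as p53 targets, so this difference describes the list, and a match is not evidence of binding in these cells. Matches of BAX, DDB2, EDA2R, RRM2B and TNFRSF10B, and a further match of CCNG1, were found but are not printed. Those of the other genes with a match are printed 5′ to 3′ on the gene's strand, with the required C and G in capitals. In their positions, upstream means upstream of the canonical start, and the GDF15 match lies inside the wider annotated gene. The printed matches show how far the letters vary between genes that behaved differently. They lay at chr12:68808923-68808942 in an intron of MDM2, chr19:18385308-18385327 upstream of GDF15, chr1:203303642-203303661 upstream of BTG2, chr4:52051957-52051976 in an intron of SPATA18, chr15:88621306-88621325 upstream of AEN, chr5:163437926-163437945 in an intron of CCNG1, chr10:88991309-88991328 in an intron of FAS, chr5:58462274-58462293 upstream of PLK2 (minus strand) and chr3:179070188-179070207 in an intron of ZMAT3 (minus strand).
MDM2: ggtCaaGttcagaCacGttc
GDF15: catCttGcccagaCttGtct
BTG2: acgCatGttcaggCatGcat
SPATA18: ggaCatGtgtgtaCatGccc
AEN: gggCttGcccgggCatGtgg
CCNG1: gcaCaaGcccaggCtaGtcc
FAS: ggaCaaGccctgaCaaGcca
PLK2: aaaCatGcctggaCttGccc
ZMAT3: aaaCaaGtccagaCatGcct

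Total counts ran from 10423437 to 13544153 per sample in DU-145 cells and from 16569613 to 26961777 in LNCaP-AI cells. Levels are given as CPM, counts relative to the library size with TMM scaling over the 12 samples, and values of 3 samples are in the order of replicates 1, 2 and 3. MUC1 was at 1.61, 1.34 and 1.81 CPM in vehicle-treated LNCaP-AI cells and at 0.326, 0.343 and 0.169 CPM with DOX. In DU-145 cells MUC1 gave 59 to 74 counts with vehicle and only 3 in any sample treated with DOX, which is the floor of 3 counts used here. All 9 luminal prostate markers examined reached 1 CPM in LNCaP-AI cells and 3 of the 9 did in DU-145 cells. Their sum moved with DOX in both lines, from 2928 to 3979 CPM with vehicle to 4502 to 5644 CPM with DOX in LNCaP-AI cells and from 771 to 836 CPM to 1695 to 1790 CPM in DU-145 cells, and its part in the results was not tested. The main division among the 6 LNCaP-AI samples was not that of treatment: their first principal component (82.5% of the variance) put vehicle 1 together with DOX 2 and 3, and DOX 1 together with vehicle 2 and 3. The 8 basal or mesenchymal-like markers summed to 154 to 171 CPM on the side of vehicle 1 and to 1009 to 1204 CPM on the other side, and 5 of them (AXL, CAV1, CD44, KRT5 and KRT7) were under 1 CPM in every sample of the first side. LNCaP-AI log2 fold changes are therefore given with their values within both sides, the side of vehicle 1 first. Beyond those values and fits with the side as a covariate, the part of this division in the results was not tested.

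In LNCaP-AI cells more of the p53 target genes rose with DOX than fell. Of the 34 genes, 32 had enough counts to be tested by edgeR's quasi-likelihood test with Benjamini-Hochberg adjustment over 16030 genes, 14 rose and 1, MDM4, fell at an adjusted p under 0.05. That is 43.8% and 3.12% of those tested, against 7.22% of all genes tested that rose and 5.52% that fell. The list was chosen with earlier results of these data known, so these shares describe the listed genes only. Their median log2 fold change was 0.48, against -0.05 over all genes. The largest rises were in GDF15, SPATA18 and BTG2. Within the sides of the principal component, 28 of the 32 genes were higher with DOX in both sides (36.2% of all genes were), 3 were lower in both (41.9%) and PLK3 had opposite signs, and the medians were 0.48 and 0.42. The 14 genes that rose had within-side log2 fold changes from 0.30 to 3.13. With the side as a covariate, 22 genes rose and 1 fell, against 18.8% and 20.3% of all genes. The calls depended on single samples. Without DOX replicate 2, or without DOX replicate 3, edgeR called 0 of the genes (and 1 gene of all tested). In each of these fits 15 of the genes were higher at an unadjusted p under 0.05. Of all genes, 3204 of 15807 and 3201 of 15816 had such a p in either direction. Without vehicle replicate 3 edgeR called 9 of the genes higher, against 531 of all 14967 tested. These are bulk samples, in which a lower level from fewer expressing cells and one from less RNA per cell cannot be told apart.

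**Figure D1:**
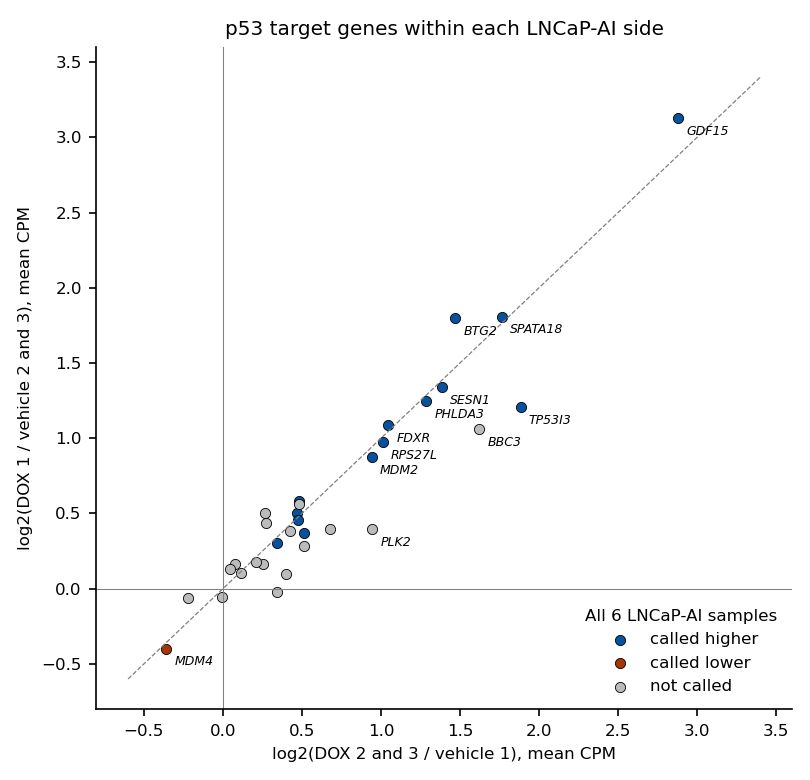
The log2 fold change of each tested p53 target gene with DOX in LNCaP-AI cells within the side of the first principal component that holds vehicle 1, DOX 2 and DOX 3 (horizontal axis) is plotted against that within the side of vehicle 2, vehicle 3 and DOX 1 (vertical axis), from mean CPM, with the dashed line where both are equal. Points are coloured by the call over all 6 samples, and 28 of the 32 genes lie above 0 on both axes.

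In DU-145 cells the same genes went both ways. Of 30 genes tested, 9 rose (30%) and 8 fell (26.7%), shares near those of all 13644 genes tested, of which 26.3% rose and 25.3% fell, so that the counts say nothing about these genes as a group. The median log2 fold change was -0.02, against 0.00 over all genes. TNFRSF10A and PLK3 rose most and TP53INP1 fell most. Called higher in both lines were 5 genes, MDM2, AEN, TNFRSF10A, TNFRSF10B and TRIAP1, and MDM4 was called lower in both. Of the 30 genes tested in both lines, 6 were called in neither. The shares of all genes called in both lines or in neither were not computed, so these counts name the genes and are not read as a result about them.

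**Figure D2:**
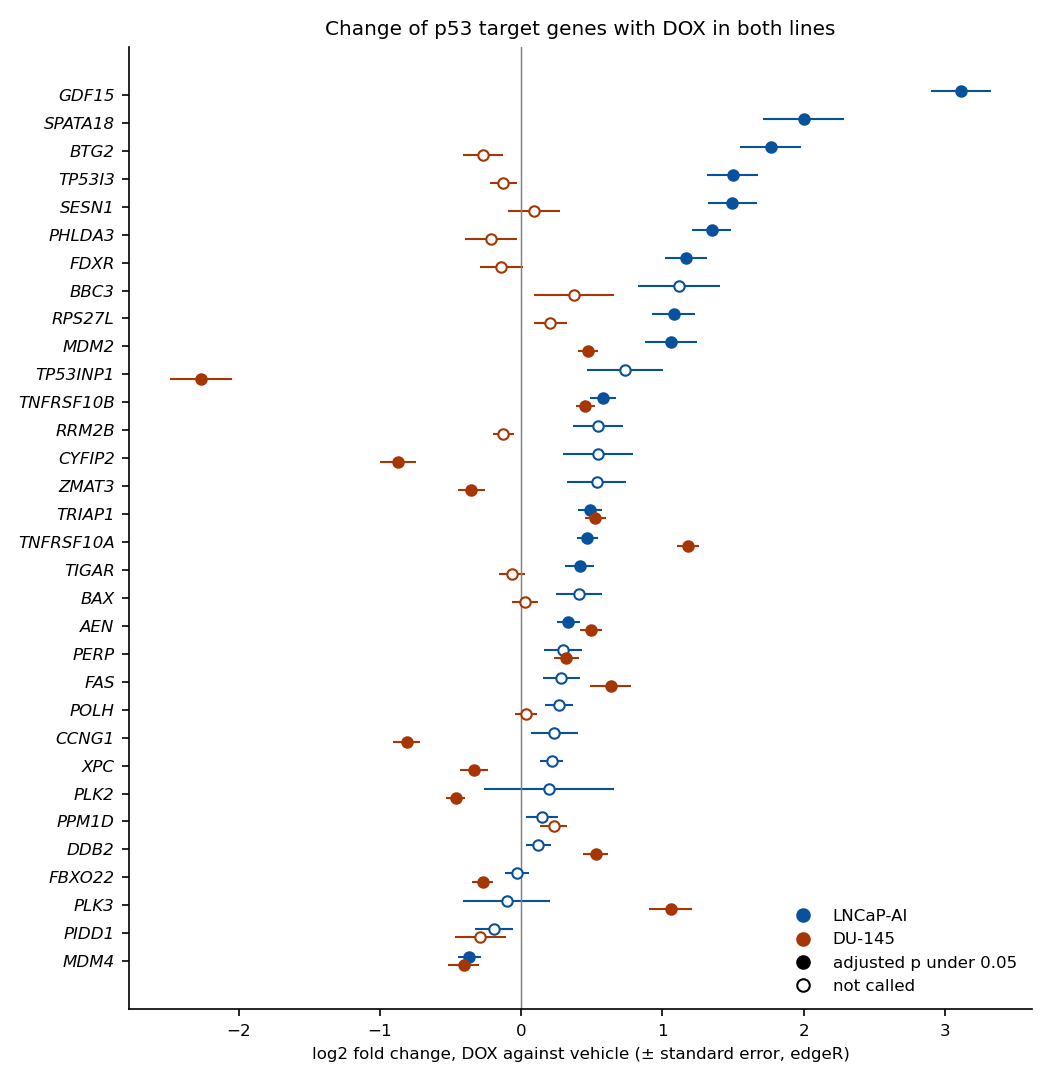
The log2 fold change with DOX (horizontal axis, DOX against vehicle, ± standard error from edgeR) is shown for each p53 target gene tested in LNCaP-AI (blue) and DU-145 (red) cells, filled where the adjusted p was under 0.05. The genes at the top, led by GDF15 at 3.11 in LNCaP-AI cells, have no DU-145 point (GDF15, SPATA18) or an open one near 0, while TP53INP1 stands at -2.27 in DU-145 cells.

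The response was then compared between the lines as the difference of the log2 fold changes, LNCaP-AI minus DU-145, over all 12 samples. Among 32 genes tested, it was higher in LNCaP-AI cells for 13 (40.6%) and lower for 1, TNFRSF10A (3.12%), at an adjusted p under 0.05 by edgeR's test, against 5.43% and 3.76% of 16800 genes. The largest differences were 3.05 (SE 0.370) for TP53INP1 and 2.07 (SE 0.241) for BTG2. Of the 14 genes, 10 kept the call in each of the 12 fits that left out 1 sample, whereas ZMAT3, RPS27L, RRM2B and TIGAR kept it in only 2 or 3 of the 12. GDF15 and SPATA18 were at or near 0 in DU-145 cells, so no difference of response is given for them. They are among the 32 genes tested and were not called.

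Among the genes that feed back on p53, MDM2 rose in both lines and MDM4 fell in both. MDM2, the ubiquitin ligase of p53, was at 193, 147 and 150 CPM with vehicle and at 275, 386 and 382 CPM with DOX in LNCaP-AI cells. The groups did not overlap, and the log2 fold change was 1.06 (SE 0.182, edgeR adjusted p = 0.0214), 0.94 and 0.87 within the sides. In DU-145 cells MDM2 was at 90.1, 75.1 and 85.2 CPM with vehicle and at 112, 119 and 115 CPM with DOX, again without overlap, for a log2 fold change of 0.47 (SE 0.0741, edgeR adjusted p = 2.78e-05). MDM4, which holds p53 inactive, was at 63.9, 66.7 and 62.9 CPM with vehicle and at 49.7, 54.0 and 49.1 CPM with DOX in LNCaP-AI cells (log2 fold change -0.37, SE 0.0800, edgeR adjusted p = 0.0366). Each side gave nearly that value (-0.36 and -0.40), but the call was lost when any 1 of the 6 samples was left out. In DU-145 cells MDM4 was at 52.3, 66.4 and 60.7 CPM with vehicle and at 35.6, 48.4 and 50.0 CPM with DOX, a log2 fold change of -0.41 (edgeR adjusted p = 0.00423). CCNG1, whose cyclin G1 recruits a phosphatase to MDM2, was at 162, 121 and 164 CPM with vehicle and at 81.2, 92.2 and 80.5 CPM with DOX in DU-145 cells. Its log2 fold change there was -0.81 (edgeR adjusted p = 8.98e-07), against 0.23 in LNCaP-AI cells, where the groups overlapped. Within the LNCaP-AI sides it was only 0.11 and 0.11, less than the 0.37 and 0.38 by which the sides differed with vehicle and DOX, and the responses of the lines differed by 1.08 (SE 0.218, edgeR adjusted p = 0.0139). FBXO22, part of a ubiquitin ligase that acts on methylated p53, fell by 0.27 on the log2 scale in DU-145 cells (edgeR adjusted p = 0.00498) and had a log2 fold change of -0.03 in LNCaP-AI cells (-0.01 and -0.06 within the sides). PPM1D passed the test in neither line, with log2 fold changes of 0.15 in LNCaP-AI cells (0.04 and 0.13 within the sides) and 0.23 in DU-145 cells.

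The receptors of the TRAIL ligand, TNFRSF10A and TNFRSF10B, rose in both lines, and TNFRSF10A rose further in DU-145 cells. TNFRSF10A (death receptor 4) was at 41.4, 42.8 and 44 CPM with vehicle and at 62.1, 59.4 and 59.2 CPM with DOX in LNCaP-AI cells (log2 fold change 0.47, edgeR adjusted p = 0.0171), 0.47 and 0.50 within the sides. It was at 46.0, 47.5 and 47.0 CPM and at 115, 102 and 100 CPM in DU-145 cells (log2 fold change 1.18, SE 0.0758, edgeR adjusted p = 3.17e-10). The vehicle samples of both lines lay from 41.4 to 47.5 CPM, all DOX samples lay above them, and the difference of responses was -0.68 (SE 0.0961, edgeR adjusted p = 0.0027). TNFRSF10B (death receptor 5) was at 180, 157 and 165 CPM with vehicle and at 244, 271 and 250 CPM with DOX in LNCaP-AI cells, a log2 fold change of 0.58 (edgeR adjusted p = 0.018), 0.48 and 0.58 within the sides. In DU-145 cells it was at 180, 169 and 190 CPM with vehicle and at 240, 253 and 240 CPM with DOX, a log2 fold change of 0.45 (edgeR adjusted p = 1.76e-05). FAS, the receptor of Fas ligand, was at 6.39, 9.31 and 8.73 CPM with vehicle and at 12.9, 11.5 and 13.1 CPM with DOX in DU-145 cells. It rose there by 0.63 on the log2 scale (edgeR adjusted p = 0.00138), and in LNCaP-AI cells its log2 fold change was 0.28, 0.40 and 0.10 within the sides, which did not pass. EDA2R, the receptor of ectodysplasin A2, had too few counts to test, with 2, 1 and 3 counts with vehicle and 10, 8 and 7 with DOX in LNCaP-AI cells and 0 in every DU-145 sample.

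Of the 10 genes of the apoptotic machinery, TP53I3, TRIAP1 and AEN rose in LNCaP-AI cells. In DU-145 cells TRIAP1, AEN and PERP rose, and TP53INP1 and CYFIP2 fell. Of all genes tested, 7.22% rose in LNCaP-AI cells, and 26.3% rose and 25.3% fell in DU-145 cells. TP53I3, a quinone oxidoreductase also called PIG3, was at 3.75, 5.03 and 5.45 CPM with vehicle and at 12.2, 14.2 and 14.5 CPM with DOX in LNCaP-AI cells. Its log2 fold change was 1.5 (SE 0.180, edgeR adjusted p = 0.0123), 1.88 and 1.21 within the sides. In DU-145 cells it was at 22.4, 20.6 and 23.8 CPM with vehicle and at 20.6, 21.0 and 19.4 CPM with DOX, with overlapping groups, so the DOX level of LNCaP-AI cells stayed under the vehicle level of DU-145 cells. The responses differed by 1.65 (SE 0.195, edgeR adjusted p = 0.00115). TP53INP1, a nuclear stress protein that promotes phosphorylation of p53 and autophagy, was at 6.89, 7.49 and 8.31 CPM with vehicle and at 1.23, 2.05 and 1.33 CPM with DOX in DU-145 cells (log2 fold change -2.27, SE 0.218, edgeR adjusted p = 7.41e-08). In LNCaP-AI cells it was at 144, 86.7 and 92.6 CPM with vehicle and at 134, 210 and 206 CPM with DOX. These groups overlapped through vehicle 1 and DOX 1, which lie on different sides of the principal component, and within the sides the log2 fold change was 0.48 and 0.57. CYFIP2, a subunit of the WAVE actin-regulating complex, also fell in DU-145 cells, with 15.7, 15.2 and 12.9 CPM with vehicle and 7.83, 8.11 and 7.80 CPM with DOX (log2 fold change -0.87, edgeR adjusted p = 1.28e-05). It was at 49.0, 31.9 and 30.2 CPM with vehicle and at 42.4, 62.8 and 60.3 CPM with DOX in LNCaP-AI cells, a log2 fold change of 0.54 that did not pass. Within the sides this was 0.28 and 0.43, while the sides differed by 0.69 with vehicle and 0.53 with DOX, and the responses of the lines differed by 1.45 (SE 0.282, edgeR adjusted p = 0.0115).

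TRIAP1, a small inhibitor of apoptosome activation, was at 69.3, 72.2 and 63.7 CPM with vehicle and at 94.3, 96.8 and 102 CPM with DOX in LNCaP-AI cells. It rose in both lines, by 0.49 in LNCaP-AI (edgeR adjusted p = 0.0225; 0.47 and 0.46 within the sides) and 0.52 in DU-145 cells (edgeR adjusted p = 9.21e-06) on the log2 scale. AEN, an apoptosis-enhancing nuclease, rose by 0.33 in LNCaP-AI (edgeR adjusted p = 0.0476) and by 0.50 in DU-145 cells (edgeR adjusted p = 2.17e-05). Within the LNCaP-AI sides it was 0.34 and 0.30, but the call was kept in only 1 of the 6 fits that left out a sample and was lost with no filter on low counts (edgeR adjusted p = 0.174, range over the alternatives 0.00341 to 0.25). PERP, a membrane protein of desmosomes and apoptosis, rose in DU-145 cells by 0.32 (edgeR adjusted p = 0.00541) and had a log2 fold change of 0.30 in LNCaP-AI cells (0.52 and 0.29 within the sides), where it did not pass. BBC3, which encodes the BH3-only protein PUMA, was at 1.74, 3.42 and 2.88 CPM with vehicle and at 6.64, 6.40 and 4.68 CPM with DOX in LNCaP-AI cells. The groups did not overlap, but with a log2 fold change of 1.12 (SE 0.291), 1.62 and 1.06 within the sides, it did not pass (edgeR adjusted p = 0.057). BAX, the pore-forming effector of mitochondrial apoptosis, was at 24.2, 31.5 and 37.7 CPM with vehicle and at 46.0, 40.5 and 39.7 CPM with DOX in LNCaP-AI cells, again without overlap and without passing (log2 fold change 0.41, edgeR adjusted p = 0.152), with 0.68 and 0.40 within the sides. PIDD1, which nucleates the caspase-2 complex, had log2 fold changes of -0.19 in LNCaP-AI (-0.22 and -0.06 within the sides) and -0.29 in DU-145 cells that did not pass. TP53AIP1, a mitochondrial protein of apoptosis, had too few counts to test in either line.

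Of the 7 genes of growth arrest and signalling, 4 rose in LNCaP-AI cells, GDF15, BTG2, PHLDA3 and RPS27L. Of all genes tested there, 7.22% rose. The roles were chosen with earlier results of these data known, so this count names the genes and is not read as a group result. GDF15, a secreted stress cytokine of the TGF-β superfamily, was at 25.3, 21.0 and 15.7 CPM with vehicle and at 162, 182 and 204 CPM with DOX, a log2 fold change of 3.11 (SE 0.211, edgeR adjusted p = 0.0109). It was 2.88 and 3.13 within the sides. In DU-145 cells GDF15 had 3 counts over the vehicle samples and 5 over the DOX samples, against 1411 and 10780 in LNCaP-AI cells. Relative to library size this was a 229-fold higher level in LNCaP-AI cells with vehicle (95% counting interval 78.1 to 1111) and a 1247-fold higher level with DOX (534 to 3840), and these intervals cover counting error only. BTG2, an antiproliferative adaptor of mRNA deadenylation, was at 46.3, 28.6 and 32.1 CPM with vehicle and at 106, 134 and 131 CPM with DOX in LNCaP-AI cells (log2 fold change 1.77, SE 0.216, edgeR adjusted p = 0.0125), 1.47 and 1.80 within the sides. In DU-145 cells it was at 9.84, 8.70 and 8.57 CPM with vehicle and at 8.02, 7.17 and 7.27 CPM with DOX. All 3 DOX samples were the lower ones, yet the log2 fold change of -0.27 did not pass (edgeR adjusted p = 0.116), and the responses differed by 2.07 (edgeR adjusted p = 0.0011).

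PHLDA3, a repressor of AKT at the membrane, was at 22.9, 18.1 and 22.2 CPM with vehicle and at 48.4, 61.0 and 54.8 CPM with DOX in LNCaP-AI cells (log2 fold change 1.35, SE 0.138, edgeR adjusted p = 0.0123), 1.29 and 1.25 within the sides. In DU-145 cells it was at 6.07, 6.07 and 6.13 CPM with vehicle and at 6.80, 4.73 and 4.26 CPM with DOX, which overlapped, and the responses differed by 1.59 (SE 0.234, edgeR adjusted p = 0.00322). RPS27L, a ribosomal protein paralog that acts on MDM2, was at 68.6, 67.8 and 51.5 CPM with vehicle and at 118, 138 and 148 CPM with DOX in LNCaP-AI cells (log2 fold change 1.08, edgeR adjusted p = 0.0153), 1.01 and 0.97 within the sides. Its close paralog RPS27 was at 307 ± 7.66 CPM with vehicle and 457 ± 19.6 CPM with DOX (SD, n = 3), and how reads shared by such copies were counted is not given in the sources used here, so the RPS27L value is uncertain to that extent. ZMAT3, an RNA-binding zinc finger protein, fell by 0.35 on the log2 scale in DU-145 cells (edgeR adjusted p = 0.00465), though the groups overlapped. In LNCaP-AI cells it had a log2 fold change of 0.53 that did not pass, 0.27 and 0.50 within the sides. The sides themselves differed in ZMAT3 by 0.62 with vehicle and 0.38 with DOX. PLK3, a stress-responsive polo-like kinase, was at 5, 6.98 and 5.80 CPM with vehicle and at 11.5, 11.3 and 13.7 CPM with DOX in DU-145 cells (log2 fold change 1.06, SE 0.153, edgeR adjusted p = 1.11e-05). In LNCaP-AI cells the log2 fold change of PLK3 was -0.10, 0.34 and -0.02 within the sides. PLK2, of the same kinase family, fell in DU-145 cells by 0.46 on the log2 scale (edgeR adjusted p = 1.32e-05), from 138, 132 and 132 CPM to 99.8, 92.1 and 99.5 CPM. In LNCaP-AI cells PLK2 was at 5.62, 14.9 and 16.9 CPM with vehicle and at 21.2, 10.8 and 11.6 CPM with DOX. Within the sides its log2 fold change was 0.94 and 0.40, while the sides themselves differed, side of vehicle 1 minus the other, by -1.47 with vehicle and -0.92 with DOX on the log2 scale.

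**Figure D3:**
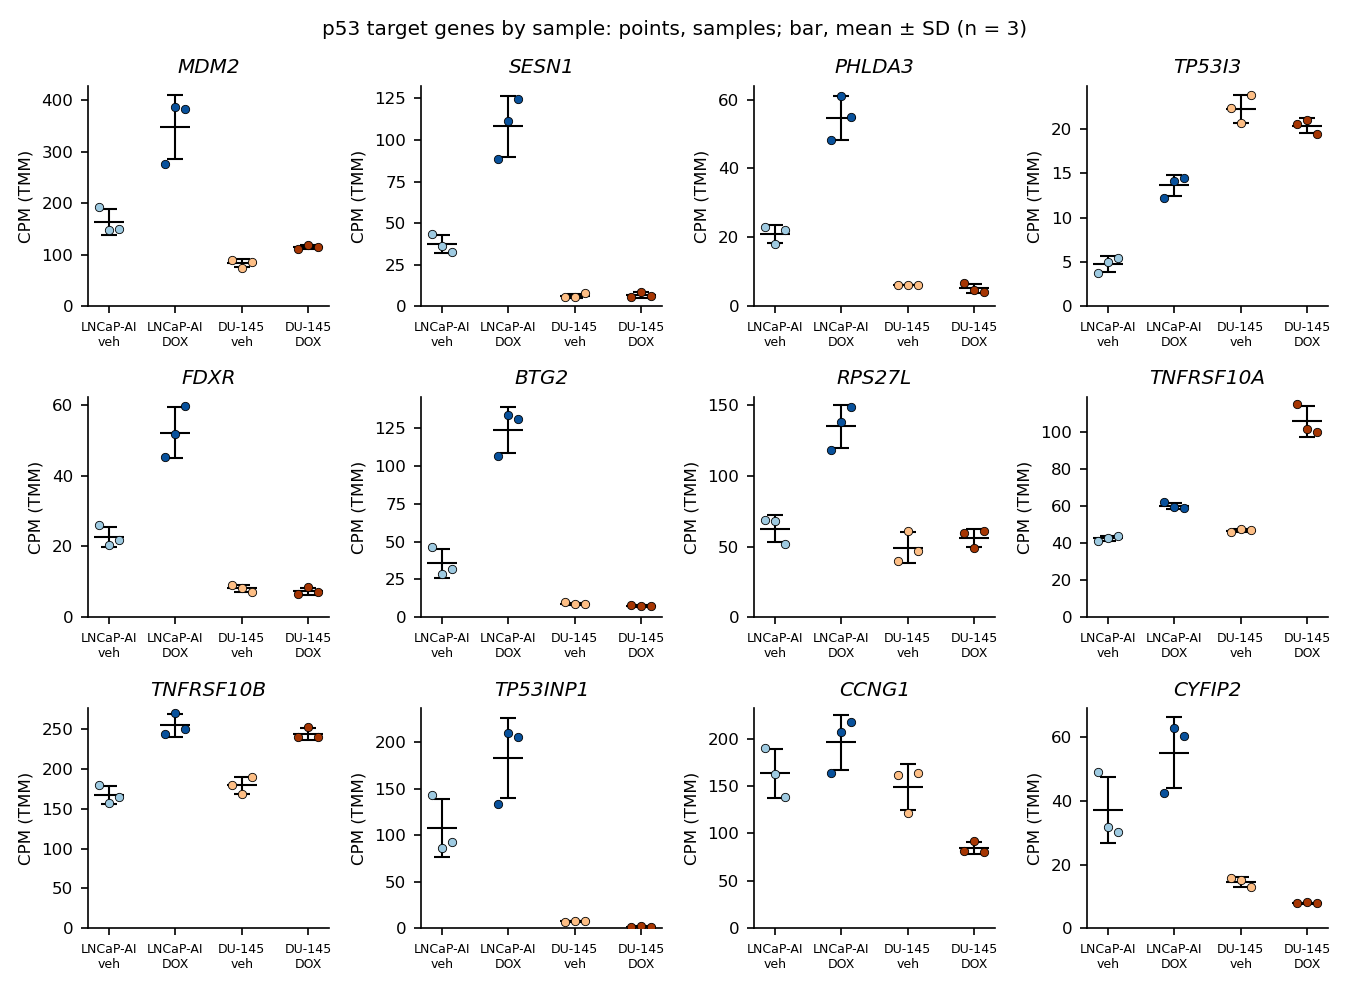
The level of 12 p53 target genes in each sample (points) is shown in CPM on linear axes that start at 0, with a bar for the mean ± SD of the 3 samples of each group. SESN1, PHLDA3, FDXR and BTG2 rise with DOX in LNCaP-AI cells and stay under 10 CPM in DU-145 cells, TNFRSF10A reaches 115 CPM in DU-145 cells with DOX, and CCNG1 falls in DU-145 cells.

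The 4 genes of DNA repair and nucleotide supply did not pass in LNCaP-AI cells. There edgeR called 0 of them, with 3 at an unadjusted p under 0.05, and DESeq2 called 1, RRM2B. Of all 16030 genes tested there, edgeR called 7.22% higher and 5.52% lower, so 0 of 4 is no result about the group. By edgeR 5003 of the 16030 had an unadjusted p under 0.05, and DESeq2 called 3517. RRM2B, the p53-inducible subunit of ribonucleotide reductase, was at 79.7, 64.9 and 59.8 CPM with vehicle and at 82.0, 106 and 116 CPM with DOX there, without overlap (log2 fold change 0.54, edgeR adjusted p = 0.0955), 0.43 and 0.38 within the sides. DDB2, a sensor of ultraviolet damage, was at 24.8, 26.8 and 23.3 CPM with vehicle and at 33.9, 35.0 and 38.5 CPM with DOX in DU-145 cells, where it rose by 0.53 on the log2 scale (edgeR adjusted p = 6.91e-05). XPC, the damage recognition factor that acts beside DDB2 in nucleotide excision repair, went the other way in DU-145 cells, from 21.1, 23.6 and 21.1 CPM to 18.7, 17.0 and 16.1 CPM (log2 fold change -0.33, edgeR adjusted p = 0.0101). The XPC response differed between the lines by 0.58 (SE 0.119, edgeR adjusted p = 0.014). In LNCaP-AI cells the log2 fold change was 0.22 for XPC (0.21 and 0.18 within the sides) and 0.12 for DDB2 (0.08 and 0.16). POLH, the translesion DNA polymerase eta, had log2 fold changes of 0.27 in LNCaP-AI (0.25 and 0.16 within the sides) and 0.03 in DU-145 cells and passed in neither.

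All 4 genes of metabolism, redox balance and mitochondria rose in LNCaP-AI cells. Of the 3 that could be tested in DU-145 cells 0 were called by edgeR, 0 by DESeq2 and 0 at an unadjusted p under 0.05. Of all genes tested, 7.22% rose in LNCaP-AI cells, and 26.3% rose and 25.3% fell in DU-145 cells. The roles were chosen with earlier results of these data known, so these counts name the genes and are not read as a group result. SESN1, a sestrin that restrains mTORC1 and peroxide, was at 43.6, 36.5 and 32.7 CPM with vehicle and at 88.5, 111 and 125 CPM with DOX in LNCaP-AI cells (log2 fold change 1.5, SE 0.176, edgeR adjusted p = 0.0123), 1.38 and 1.34 within the sides. In DU-145 cells SESN1 was at 5.90, 5.67 and 7.81 CPM with vehicle and at 5.47, 8.59 and 6.39 CPM with DOX, and the responses differed by 1.45 (SE 0.278, edgeR adjusted p = 0.0108). FDXR, the mitochondrial ferredoxin reductase, was at 26.0, 20.4 and 21.9 CPM with vehicle and at 45.3, 51.7 and 59.6 CPM with DOX in LNCaP-AI cells. Its log2 fold change was 1.17 there (edgeR adjusted p = 0.0132), 1.05 and 1.09 within the sides, and -0.14 in DU-145 cells, a difference of 1.35 (edgeR adjusted p = 0.00403). SPATA18, a protein of mitochondrial quality control also called Mieap, was at 13.5, 9.52 and 7.68 CPM with vehicle and at 30.4, 46.3 and 49.0 CPM with DOX in LNCaP-AI cells, for a log2 fold change of 2.00 (SE 0.286, edgeR adjusted p = 0.0153), 1.76 and 1.81 within the sides. No DU-145 sample had any count (0 in all 6), and against a floor of 3 counts over the group its level was at least 114-fold higher in LNCaP-AI cells with vehicle and at least 467-fold higher with DOX. TIGAR, a fructose bisphosphatase that slows glycolysis, was at 23.2, 28.3 and 24.2 CPM with vehicle and at 34.3, 35.5 and 32.9 CPM with DOX in LNCaP-AI cells. Its log2 fold change was 0.42, close to the threshold (edgeR adjusted p = 0.0498), 0.51 and 0.37 within the sides, and -0.07 in DU-145 cells. The LNCaP-AI call of TIGAR was kept in only 1 of the 6 fits that left out a sample and was lost with no filter (edgeR adjusted p = 0.156, range over the alternatives 0.000765 to 0.227).

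In vehicle-treated cells 18 of the 32 genes tested were higher in LNCaP-AI than in DU-145 cells (56.2%) and 5 were lower (15.6%), against 37.6% and 28.7% of 16800 genes by edgeR's test. GDF15 and SPATA18 are among the 18. Both were at or near 0 counts in DU-145 cells and reached the minimum of counts only through LNCaP-AI samples. Their calls were therefore settled by how they entered the test, and the share of 56.2% still counts them. How many of the 16800 genes entered in this way was not counted. TP53INP1 was higher by 3.83 on the log2 scale (SE 0.258), SESN1 by 2.54 and BTG2 by 1.98, and MDM2 by 0.97. The genes that were lower were PLK2, by a log2 difference of -3.42 (SE 0.373), TP53I3, by -2.23 (SE 0.144), ZMAT3, POLH and TIGAR. TNFRSF10A and TNFRSF10B did not pass, with log2 differences of -0.13 and -0.10. Per kilobase of the canonical transcript, CCNG1 had the highest level in both lines, 66.9 CPM per kilobase in LNCaP-AI and 60.9 in DU-145 cells. TRIAP1 came second in LNCaP-AI cells at 59.4 CPM per kilobase, nearer to CCNG1 than the SD of CCNG1, and TNFRSF10B, BAX and PERP followed between 38.4 and 41.9, which is less apart than the SD of BAX or PERP. In DU-145 cells PLK2 came second at 48.2 CPM per kilobase, and in LNCaP-AI cells it stood at 4.48. The lowest levels were those of EDA2R, TP53AIP1 and BBC3 in LNCaP-AI cells. The level of RPS27L per kilobase depends on its canonical transcript of 6110 bases.

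**Figure D4:**
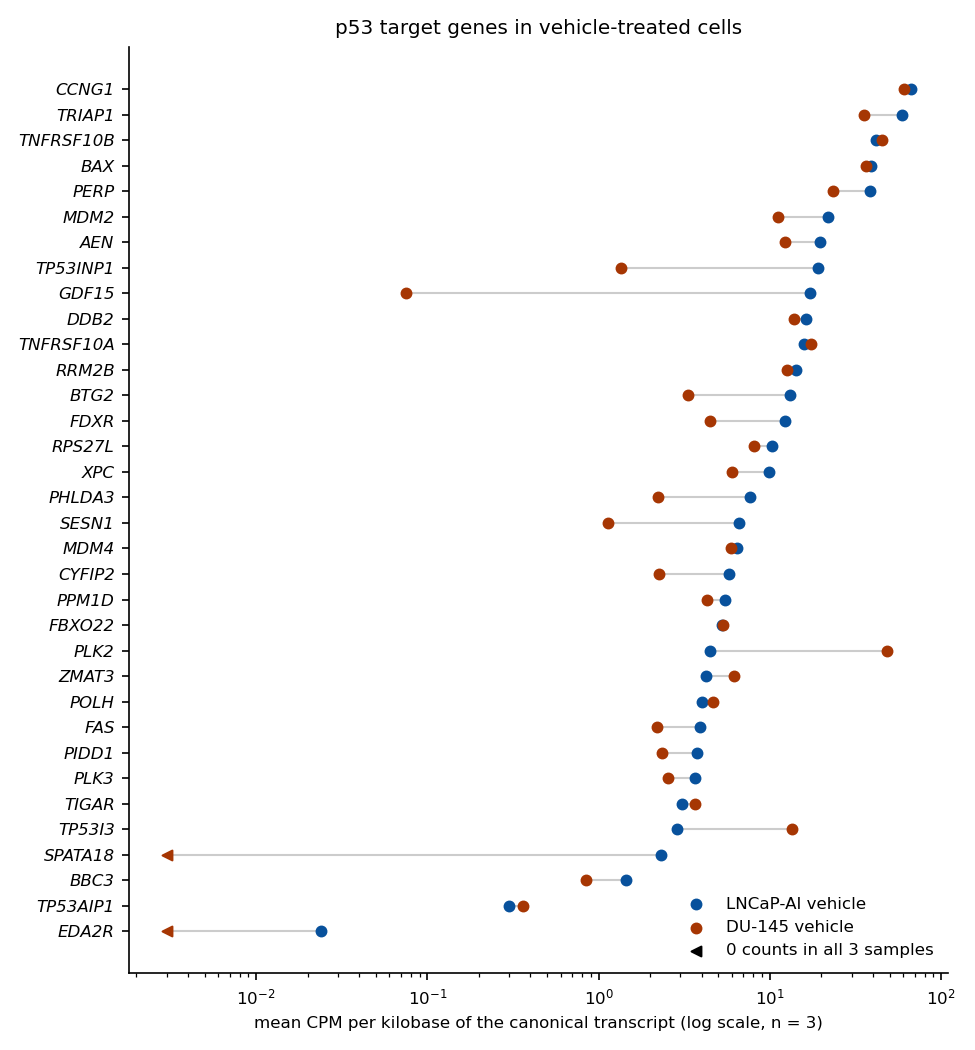
The mean level in vehicle-treated cells is shown for the 34 p53 target genes in CPM per kilobase of the canonical transcript (log axis) in LNCaP-AI (blue) and DU-145 (red) cells, ordered by the LNCaP-AI level. Triangles mark genes with 0 counts in all 3 DU-145 samples, and the widest gaps are those of SPATA18, GDF15, TP53INP1 and PLK2.

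Of 30 genes that regulate p53, 2 passed the test in LNCaP-AI cells and both fell, the checkpoint kinases CHEK1 (log2 fold change -0.72) and CHEK2 (-0.65). Of all genes tested there, 7.22% rose and 5.52% fell, so 2 of 30 is near the general share and is no result about the group. In DU-145 cells 9 of 28 tested rose and 8 fell, shares near the 26.3% and 25.3% of all genes, so the count says nothing about the regulators as a group. Those that rose included the methyltransferase KMT5A (0.51), the ubiquitin ligase RCHY1 (0.45) and the histone chaperone DAXX (0.39), and those that fell included the methyltransferase SMYD2 (-1.25) and the kinases ATM (-0.47) and ATR (-0.40). The median log2 fold change of the regulators was -0.11 in LNCaP-AI and 0.10 in DU-145 cells, against -0.05 and 0.00 over all genes tested.

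A list of 105 other published p53 targets gave 21 that rose and 1 that fell of 99 tested in LNCaP-AI cells, where 7.22% of all genes rose and 5.52% fell, with a median log2 fold change of 0.17. CDKN1A, which encodes the CDK inhibitor p21, rose by 3.51 there (SE 0.133, edgeR adjusted p = 0.00233) and by 2.07 in DU-145 cells (SE 0.0742, edgeR adjusted p = 1.44e-13). In DU-145 cells, where 26.3% of all genes rose and 25.3% fell, 42 of 94 rose and 16 fell, among them SESN2 at a log2 fold change of 1.82 and DRAM1 at -0.88, with a median of 0.14. Some of the 34 genes are also known targets of other factors: GDF15, TNFRSF10B and BBC3 of ATF4, and BTG2, PLK2 and PLK3 as immediate early genes. The lists also share genes outside the 34. SESN2 is on those of other p53 targets and of ATF4 targets, and ATF3 is on both of these and on that of immediate early genes. Of 27 ATF4 targets, 2 rose and 5 fell in LNCaP-AI cells (median log2 fold change -0.33), and 21 of 26 tested rose and 3 fell in DU-145 cells (median 0.62), with CHAC1 at 1.99. Of 30 immediate early genes tested in each line, 1 rose in LNCaP-AI cells (ATF3 at 1.19, median of the list -0.53), and 24 rose and 3 fell in DU-145 cells (median 0.64), with DUSP5 at 2.07 and EGR1 at -1.79. These counts of both lists read against the same shares of all genes in each line. The part of these factors in the values of the 34 genes was not tested.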

How the data were processed

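RNA from LNCaP-AI and DU-145 cells was made into TruSeq stranded mRNA libraries. The authors aligned reads with STAR (2.7.0 in the submitters' processing notes) to GRCh38. Raw counts for each gene were deposited, not normalized. How reads were counted on genes, and whether strand was used, is not given in the sources used here, so antisense partners cannot be told apart (XPC shares 1140 exonic bases with XPC-AS1, FBXO22 1918 with NRG4). The libraries carry no molecular identifiers, so intervals and floors cover counting error only.

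DOX was compared with vehicle in each line by edgeR 4.0.16 in R 4.3.3 (TMM, glmQLFit, glmQLFTest), keeping genes that reached 10 counts in 3 or more of the samples fitted. The difference between lines used all 12 samples. Standard errors are the fold change over the square root of F. Calls used a threshold of 0.05 on p after Benjamini-Hochberg adjustment. Alternatives were DESeq2 1.42.0, other size factors and filters, all 12 samples in 1 fit, the replicate number as a block, the side of the first principal component, and each sample left out. The steps were tested on simulated data. All 34 genes were named, with values for those called in either line or in the difference. From the regulators any gene called could be named, and from the other lists the 3 called genes of smallest adjusted p per direction. The genes, roles and lists (written from memory; 1 regulator is not reported here) were chosen with earlier results of these data known. Positions and transcripts come from GENCODE 44. All replicate pairs differed by more than sampling noise (smallest chi-square per degree of freedom 2.26).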

Additional observations from a re-analysis of the deposited data

Results flagged for a closer look

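The response to DOX differed between LNCaP-AI and DU-145 cells, by edgeR's test of the difference over 12 samples, for 14 of the p53 target genes. The difference of log2 fold changes, LNCaP-AI minus DU-145, was 3.05 for TP53INP1, 2.07 for BTG2, 1.65 for TP53I3, 1.59 for PHLDA3 and 1.35 for FDXR. It was 1.45 for both CYFIP2 and SESN1. CCNG1 differed by 1.08, ZMAT3 by 0.92, RPS27L by 0.91, RRM2B by 0.70, XPC by 0.58 and TIGAR by 0.52. TNFRSF10A was the only one of the 14 with a smaller response in LNCaP-AI cells, at -0.68. For TP53INP1, CYFIP2, CCNG1, ZMAT3 and XPC the gene was called lower in DU-145 cells and not called in LNCaP-AI cells, and for BTG2, TP53I3, PHLDA3, SESN1, FDXR, RPS27L and TIGAR it was called higher in LNCaP-AI cells and not called in DU-145 cells. RRM2B was called in neither line.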

How the results depend on the processing

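The 15 genes called in LNCaP-AI cells kept their direction under every alternative run, and 13 of the 17 called in DU-145 cells kept their call under each of 13 alternatives. PERP, PLK2, XPC and ZMAT3 each kept it in 12 of the 13. Replicate numbers did not pair the samples (correlations of same-numbered deviations -0.94, -0.81 and -0.84 in LNCaP-AI and 0.13, -0.09 and 0.08 in DU-145 cells). The replicate block called 0 genes higher and 0 lower in LNCaP-AI cells (15 higher and 1 lower at an unadjusted p under 0.05). Of all 16030 genes in that fit 0 were called, and 2909 had an unadjusted p under 0.05. The block called 1 higher and 0 lower in the difference between lines, and 2 lower in vehicle-treated LNCaP-AI cells than in DU-145 cells. The side covariate gave 22 genes higher in LNCaP-AI cells and 3 lower in the difference, where DESeq2 gave 2. The 1 gene lower in LNCaP-AI cells was called by neither upper-quartile normalization nor the fit of all 12 samples (0 each). In vehicle-treated cells upper-quartile normalization and no filter each gave 3 lower. With each sample left out, 0 to 18 genes were higher and 0 lower in LNCaP-AI cells, 9 to 15 were higher and 1 to 2 lower in the difference, and 2 to 5 were lower in vehicle-treated LNCaP-AI cells. Signs turned in values near 0. In LNCaP-AI cells upper-quartile normalization gave 0.026 for FBXO22 and the side covariate 0.13 for PLK3, and with each sample left out FBXO22 ran from -0.083 to 0.021, PLK2 from -0.16 to 0.47 and PLK3 from -0.34 to 0.082. In DU-145 cells upper-quartile normalization gave -0.0012 for BAX, and with each sample left out BAX ran from -0.047 to 0.095, SESN1 from -0.11 to 0.24 and TIGAR from -0.13 to 0.00053. The cause of these turns was not tested. The minimum of 10 counts in 3 samples left EDA2R and TP53AIP1 untested in both lines and GDF15 and SPATA18, at or near 0 counts, untested in DU-145 cells.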
